A study of Mus musculus with 12 samples.

Results

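Colonic stroma of growing mice at postnatal day 14 (P14) was compared with that of normal adult mice by RNA-seq. The comparison takes the 8 libraries labelled as developmental or normal colon, 4 in each group, of the 12 libraries in the series. The other 4 libraries come from colonic tumours raised with azoxymethane and dextran sodium sulfate (AOM/DSS), and they enter only the filter, the scaling and the shared estimate of spread. All mice were C57BL/6J. The P14 mice were 2 weeks old and the adult mice 8 weeks old, and the labels name no transgene, mutation or treatment in either group. Each group is stated to hold 2 males and 2 females, and the design text calls the younger group prenatal although P14 is after birth. Colon pieces were digested with collagenase and dispase, and live cells without EPCAM (epithelium), CD31 (endothelium), CD45 (leukocytes) and TER119 (red cell lineage) were sorted. What remains is a mixture of fibroblasts, smooth muscle, pericytes, glia and interstitial cells, and no single stromal type was isolated.

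At P14 a mouse is still suckling, its colon is lengthening, and its mucosal immune system and microbiota are immature. Fibroblasts of the colon wall lay down the collagen-rich matrix and send growth signals to the epithelium, smooth muscle and pericytes contract around gut and vessels, and glia and neurons of the enteric plexuses run through the muscle layers. In the adult gut, fibroblasts around vessels and below the crypts also secrete complement, chemokines and hormone-modifying enzymes.

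Total counts were 26392364 to 29911817 in the normal adult and 29499836 to 38799033 in the P14 libraries. Values in CPM (counts relative to library size, scaled by TMM factors) are given for replicates 1 to 4 in order, or as mean ± SD, and log2 fold changes (P14 over normal adult) carry their SE. Every mean rests on n = 4 libraries. A principal component analysis used the 500 genes that varied most over these same 8 libraries. Its first axis held 89.4% of the variance of those genes, not of all genes, and separated the groups. P14 replicate 4 was at 8.47 on it and the other P14 libraries at 39.2 to 46.4.

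The sorted cells were checked against marker lists. Fibroblast markers summed to 34350.0 to 44190.0 CPM against 79950.0 to 104500.0 CPM in the normal adult and P14 libraries. Of the 14 markers, 5 rose, 0 fell and 9 did not pass, with a median log2 fold change of 0.56, and the 5 that rose are the collagen chains of the list, with Col3a1 alone at 17630.0 ± 1991 and 56750.0 ± 10190.0 CPM. Over all tested genes, 14.9% were called higher at P14 and 16% lower, at an adjusted p under 0.05. Pdgfra, a receptor of most colonic fibroblasts, stood at 1014 ± 156 and 917 ± 65.3 CPM with overlapping groups (log2 fold change -0.14 ± 0.26 at adjusted p = 0.714). Smooth muscle markers summed to 1547 to 2708 CPM against 5606 to 10670.0 CPM and pericyte markers to 651 to 1142 CPM against 2095 to 2874 CPM, without overlap. Epithelial markers, which the sort should remove, summed to 8704, 18500.0, 15850.0 and 8417 CPM in the normal adult libraries and 870.5, 855, 556 and 3655 CPM in the P14 libraries. All 20 epithelial markers fell, also whichever library was left out. Every normal adult library was above every P14 library in this sum, and P14 replicate 4 was 4.41 times the mean of the other P14 libraries at the median marker. Leukocyte markers summed to 165 to 219 CPM against 25.6 to 43.8 CPM, erythroid markers to 32.04 to 47.1 CPM against 5.51 to 8.09 CPM and plasma cell markers to 599.9 to 1670.0 CPM against 320.4 to 369.9 CPM, all lower in every P14 library. Endothelial marker sums overlapped, at 314 to 464 CPM against 164 to 532 CPM, with the highest value in P14 replicate 3. In such bulk samples fewer cells of a type and less RNA per cell cannot be told apart.

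**Figure D1:**
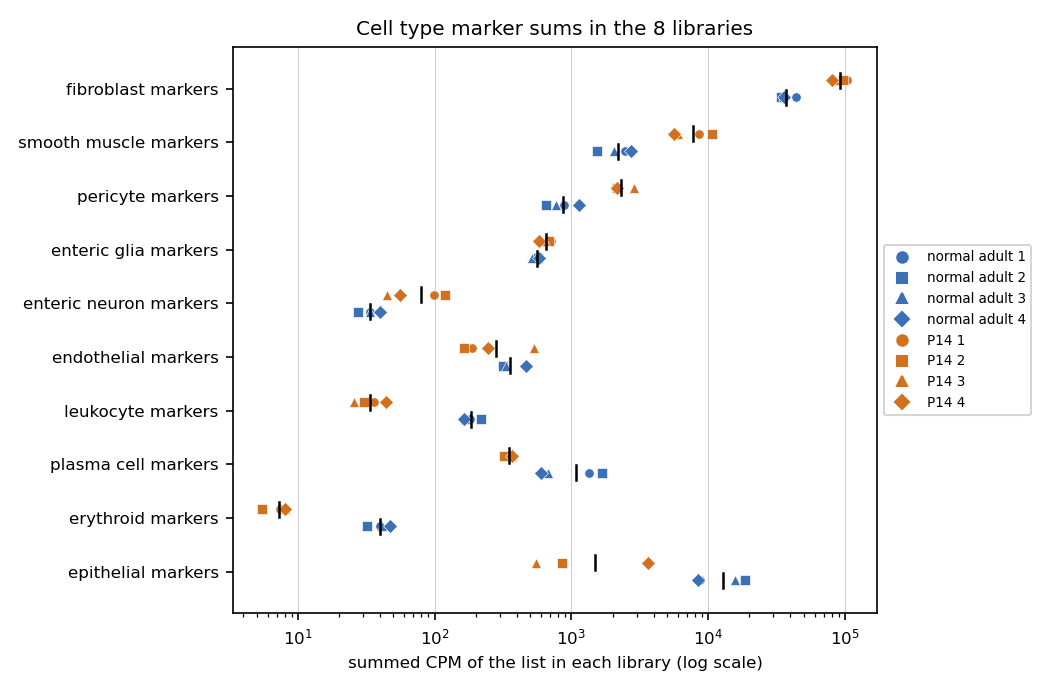
Summed CPM of 10 cell type marker lists in each library on a log axis, with normal adult libraries in blue, P14 libraries in orange, 1 marker shape per replicate and black bars at group means. Smooth muscle and pericyte sums are higher in every P14 library, and epithelial, leukocyte and erythroid sums lower, with P14 replicate 4 (diamond) the highest P14 library for epithelial markers.

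At an adjusted p under 0.05 in edgeR's quasi-likelihood test, 2797 genes (14.9%) were called higher and 2992 (16%) lower at P14, of 18727 tested. The 4 P14 values lay above all 4 adult values in 4040 genes (21.6%) and below them in 4072 (21.7%). The median log2 fold change over tested genes was -0.002. These shares are the background for the counts per gene list below. When the epithelial marker sum was added to the model as a covariate, an alternative chosen after seeing the data, 14 genes were called higher and 9 lower. That sum does not overlap between the groups, so the covariate and the group cannot be told apart in these libraries. The fitted direction remained in 2599 of the 2797 rises and in 2254 of the 2992 falls. Of the called genes described here, Nrep, Prss35, Sox11, Bdnf, Mdk, Ces1g, Ly6a and Cela1 still passed with the covariate.

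**Figure D2:**
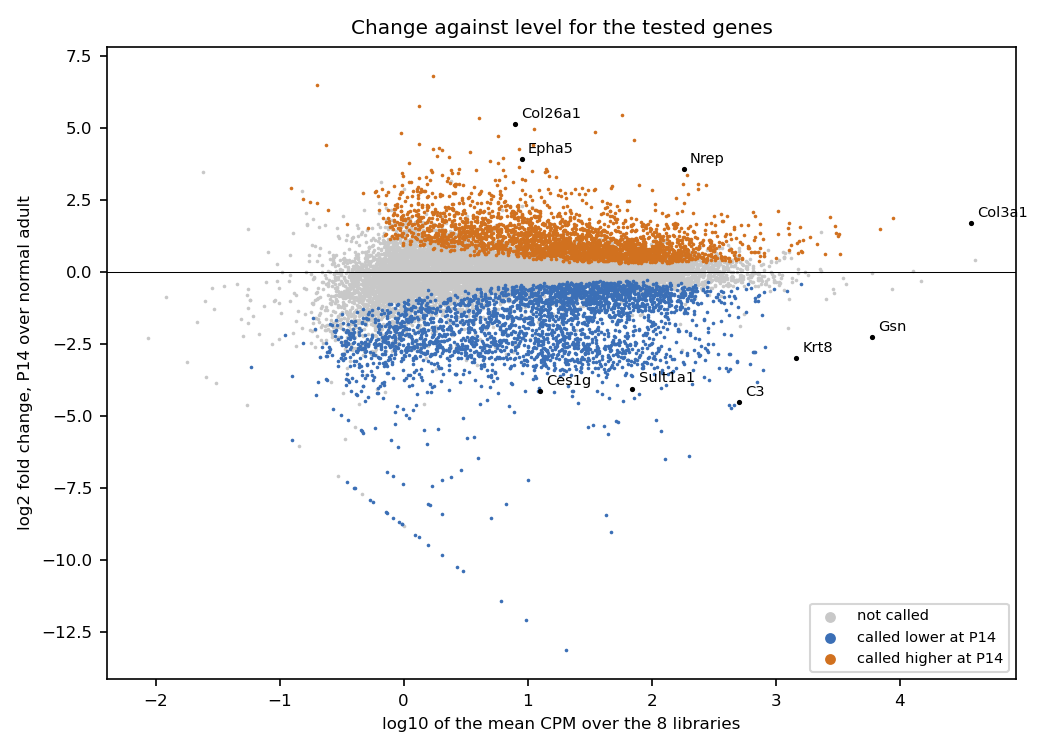
Log2 fold change at P14 against log10 of mean CPM over the 8 libraries for tested genes with a count in them. Orange points were called higher and blue points lower at P14, grey points were not called, and labelled black points are 9 genes described in the text.

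The rises with the largest conservative change (fold change less its margin of error) were taken among genes of at least 10 CPM in the higher group. Nrep, a small intracellular protein first found in regenerating and embryonic neurons and also made by myofibroblasts (ENSMUSG00000042834, chromosome 18, 33437019 to 33464029 on the minus strand, GRCm38), stood at 30.98, 27.2, 29.6 and 23.7 CPM in the normal adult libraries and 425, 402, 292 and 221 CPM in the P14 libraries. The groups did not overlap, replicates 1 and 2 were the highest of the P14 libraries, and the difference was 3.59 ± 0.25 on the log2 scale (adjusted p = 4.84e-05). Emilin3, a glycoprotein of the matrix (ENSMUSG00000050700, chromosome 2, 160906437 to 160912328 on the minus strand), stood at 0.801, 0.590, 0.721 and 0.920 CPM in the normal adult libraries and 12.5, 16.3, 7.64 and 10.7 CPM in the P14 libraries, again without overlap (log2 fold change 3.95 ± 0.38 at adjusted p = 8.04e-05). Ly6h, a lipid-anchored surface protein that binds nicotinic acetylcholine receptors (ENSMUSG00000022577, chromosome 15, 75551268 to 75567255 on the minus strand), stood at 0.416, 0.147, 0.721 and 0.375 CPM in the normal adult libraries and 13.3, 11.9, 9.30 and 9.80 CPM in the P14 libraries. All adult values of Ly6h were under 1 CPM and all P14 values over 9 CPM (log2 fold change 4.72 ± 0.79 at adjusted p = 0.00131).

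A further rule took genes with a mean under 0.5 CPM in 1 group and of at least 5 CPM in the other. It found 6 genes on the P14 side and 7 on the adult side. Prss35, a secreted protein related to serine proteases, stood at 0.128, 0.184, 0.252 and 0.204 CPM in the normal adult libraries and 11.1, 9.88, 6.70 and 4.27 CPM in the P14 libraries (log2 fold change 5.35 ± 0.43 at adjusted p = 5.25e-05). Hs6st2, which adds sulfate to heparan sulfate chains, stood at 0.320, 0.406, 0.360 and 0.341 CPM in the normal adult libraries and 8.57, 6.87, 5.29 and 5.22 CPM in the P14 libraries (log2 fold change 4.17 ± 0.40 at adjusted p = 8.04e-05). Both were low in all 4 adult libraries, and both were higher in P14 replicates 1 and 2 than in replicates 3 and 4. Slc26a7, an anion exchanger, and Crtac1, a matrix protein of cartilage, changed by 3.58 ± 0.61 and 3.45 ± 0.66, and the other 2 were Ly6h and the collagen gene Col26a1 (5.14 ± 0.72).

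On the adult side, Cd163, the haemoglobin scavenger receptor of macrophages, stood at 6.05, 6.08, 5.88 and 4.02 CPM in the normal adult libraries and 0.467, 0.248, 0.380 and 0.753 CPM in the P14 libraries (log2 fold change -3.56 ± 0.58 at adjusted p = 0.00113). Rgs13, a regulator of G protein signals, stood at 4.68, 6.67, 8.18 and 3.85 CPM in the normal adult libraries and 0.110, 0.124, 0.0346 and 0.391 CPM in the P14 libraries (log2 fold change -5.08 ± 0.71 at adjusted p = 0.000515). The remaining 5 were Slc13a1, a sulfate transporter, Cyp2d12, Mettl7a2, Upb1 and Ceacam10, with log2 fold changes of -4.45 ± 0.80, -4.58 ± 0.83, -6.88 ± 0.82, -3.81 ± 0.53 and -5.77 ± 0.64. In Slc13a1 P14 replicate 4 was at 1.17 CPM against 0.0929 to 0.192 CPM in the other P14 libraries, whereas Ceacam10 was at 0.0824 to 0.140 CPM in all 4. P14 replicate 4 was also the highest P14 library for Rgs13, Cd163 and Cyp2d12, but not for Upb1 or Mettl7a2. The parts of epithelial and leukocyte RNA in these falls were not tested.

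Among falls, 9 of the 10 with the largest loss in mean CPM were epithelial genes or C3, and the tenth was Gsn, an actin-severing protein that is also secreted into plasma. Gsn stood at 13330.0, 8213, 8034 and 10050.0 CPM in the normal adult libraries and 2148, 2142, 2050.0 and 1918 CPM in the P14 libraries. It had the largest loss of mean CPM of the called genes without overlap, and the P14 values lay within a narrow range (log2 fold change -2.26 ± 0.43 at adjusted p = 0.00242). The epithelial ones were Krt8, Krt19, Epcam, Lgals4, Muc2, Pigr, Lypd8 and Fcgbp, with log2 fold changes from -3.81 ± 0.78 for Pigr to -2.62 ± 0.65 for Lypd8. In each of these 8, P14 replicate 4 was the highest P14 library, and the part of epithelial RNA in these falls was not tested.

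**Figure D3:**
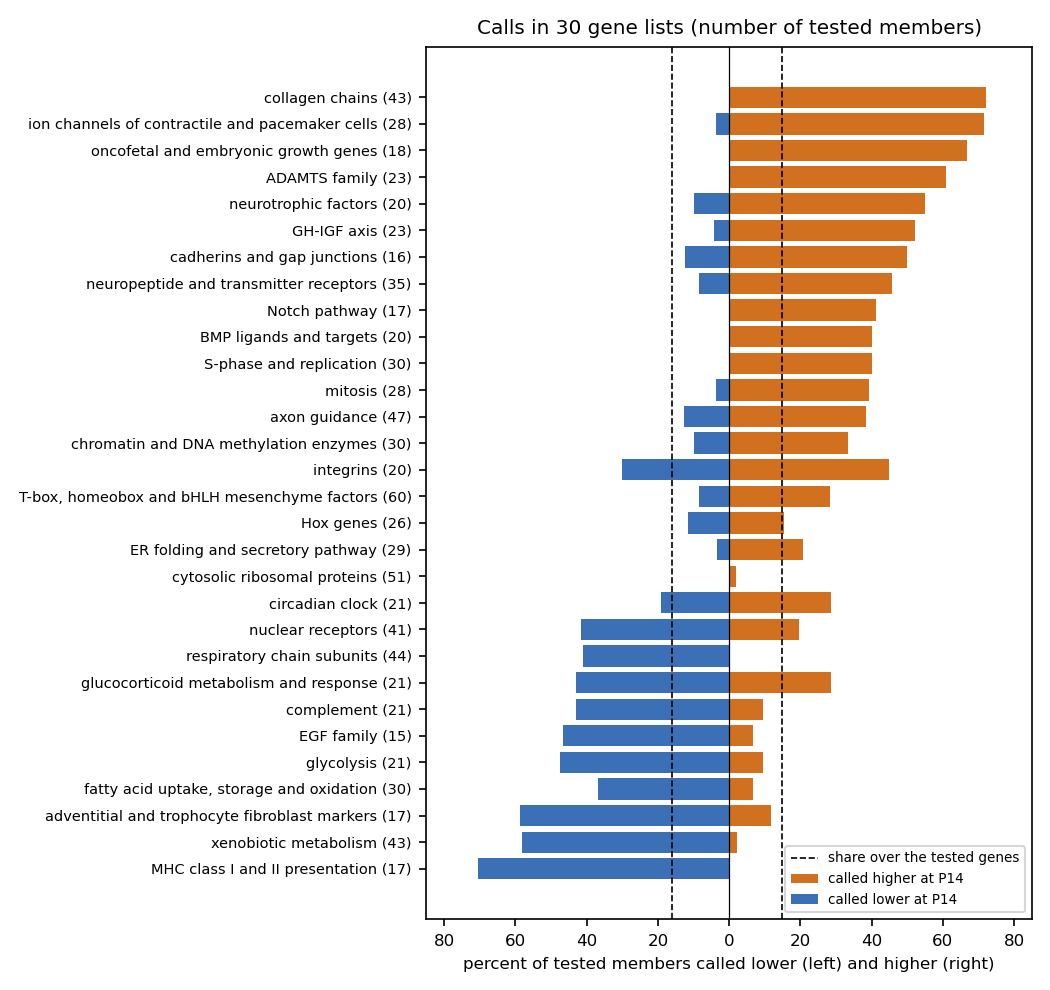
Percent of tested members called higher (orange, right) and lower (blue, left) at P14 in 30 gene lists, with the number of tested members in brackets. Dashed lines mark the shares over all tested genes, 14.9% higher and 16% lower. Collagen chains reach 72.1% higher and ion channels of contractile cells 71.4%, and MHC presentation reaches 70.6% lower.

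Of the 10 genes with the largest gain in mean CPM, 8 encode matrix proteins (Col3a1, Col1a2, Postn, Col1a1, Sparc, Col5a2, Col4a1 and Col5a1), and the other 2 are Flna, which links actin filaments, and Myh11, the myosin of smooth muscle. Of 43 tested collagen chains, 31 rose, 0 fell and 12 did not pass, with a median log2 fold change of 1.26, and the number of rises was 26 to 29 when 1 library was left out. Their summed level was 45220.0, 35010.0, 36630.0 and 38480.0 CPM in the normal adult libraries and 116500.0, 108400.0, 103900.0 and 94910.0 CPM in the P14 libraries, so the lowest P14 library was over 2 times the highest adult library. Col3a1, a fibrillar collagen of extensible tissue, stood at 20570.0, 16480.0, 17150.0 and 16330.0 CPM in the normal adult libraries and 67290.0, 63490.0, 49840.0 and 46380.0 CPM in the P14 libraries (log2 fold change 1.69 ± 0.29 at adjusted p = 0.00159). Col12a1, which sits on the surface of collagen fibrils, stood at 796, 491, 579.6 and 737 CPM in the normal adult libraries and 1773, 1515, 2368 and 1772 CPM in the P14 libraries (log2 fold change 1.51 ± 0.20 at adjusted p = 0.000431). Neither gene overlapped between groups. Col5a1 and Col5a2, chains of the collagen that nucleates fibrils, changed by 1.21 ± 0.17 and 1.31 ± 0.24. The membrane-spanning collagens Col25a1 and Col23a1 changed by 2.72 ± 0.38 and 1.26 ± 0.19.

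The secretory machinery did not rise as a whole. Of 29 genes of endoplasmic reticulum folding and secretion, 6 rose, 1 fell and 22 did not pass, with a median log2 fold change of 0.04. The rises included Serpinh1, the chaperone specific to collagen, from 1050.0 ± 164 to 2293 ± 318 CPM (adjusted p = 0.00164). Sec24d and Sec23a, coat proteins of the vesicles that carry procollagen, changed by 1.01 ± 0.17 and 0.61 ± 0.14. General chaperones did not pass, with -0.05 ± 0.24 for Hspa5, 0.06 ± 0.17 for Hsp90b1 and 0.04 ± 0.19 for Calr.

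Of 23 ADAMTS proteases and relatives, 14 rose, 0 fell and 9 did not pass, with a median log2 fold change of 0.92, and the number of rises was 11 to 14 when 1 library was left out. Adamts8 stood at 3.20, 4.02, 6.995 and 6.78 CPM in the normal adult libraries and 39.7, 41.05, 30.3 and 29.3 CPM in the P14 libraries, without overlap (log2 fold change 2.74 ± 0.29 at adjusted p = 0.000135). Adamts2, which cleaves the end of procollagen, changed by 0.92 ± 0.18, and Adamts17, which is tied to fibrillin microfibrils, by 2.13 ± 0.38. Of 21 matrix metalloproteinases and their inhibitors, 5 rose, 2 fell and 14 did not pass, with a median log2 fold change of 0.32. Mmp16, a membrane-bound protease, stood at 23.8, 16.6, 18.2 and 20.04 CPM in the normal adult libraries and 165, 129, 61.8 and 75.7 CPM in the P14 libraries (log2 fold change 2.45 ± 0.44 at adjusted p = 0.00178). Its P14 replicates 1 and 2 were the highest, and every one of the P14 values lay above the adult range.

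Cell surface receptors for matrix split by chain. Of 20 integrin genes, 9 rose, 6 fell and 5 did not pass, with a median log2 fold change of 0.51. Itga11, the collagen receptor chain of fibroblasts, fell, at 90.99, 63.5, 68.2 and 90.3 CPM in the normal adult libraries and 9.89, 11.2, 18.3 and 13.9 CPM in the P14 libraries (log2 fold change -2.56 ± 0.33 at adjusted p = 0.000338). Itga1, the collagen receptor chain of smooth muscle and other mesenchyme, rose, at 91.8, 63.3, 80.9 and 118 CPM in the normal adult libraries and 238, 279, 283 and 215 CPM in the P14 libraries (log2 fold change 1.52 ± 0.20 at adjusted p = 0.000344). The 2 collagen receptor chains thus moved in opposite directions, without overlap in either. Itga8, a receptor chain of contractile mesenchyme that binds nephronectin, rose from 62.8 ± 15.6 to 258 ± 48.3 CPM, Itga7, the laminin receptor chain of muscle, from 34.2 ± 4.99 to 103 ± 9.98 CPM, and the shared beta chain Itgb1 from 915 ± 88.8 to 1756 ± 232 CPM. Itga3, a laminin receptor chain common in epithelium, changed by -1.03 ± 0.24, and in it P14 replicate 4 was the highest P14 library.

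Of 11 laminin chains, 4 rose, 2 fell and 5 did not pass, with a median log2 fold change of 0.56. Lama1, the alpha chain of early basement membranes, stood at 20.5, 12.2, 16.3 and 22.3 CPM in the normal adult libraries and 79.2, 100.5, 92.9 and 73.8 CPM in the P14 libraries, with no overlap (log2 fold change 2.28 ± 0.21 at adjusted p = 6.95e-05). Lamb3, a chain of an epithelial laminin, changed by -2.22 ± 0.45, with P14 replicate 4 at 47.8 CPM against under 20 CPM in the other P14 libraries. Among hyaluronan genes Has1, a hyaluronan synthase, stood at 854, 847, 583 and 581 CPM in the normal adult libraries and 166, 163, 143 and 149 CPM in the P14 libraries (log2 fold change -2.20 ± 0.47 at adjusted p = 0.00417). Has2, another synthase, stood at 79.5 ± 11.1 and 124 ± 15.8 CPM and did not pass (adjusted p = 0.0526). Vcan, the large proteoglycan that binds hyaluronan, rose from 323 ± 67.8 to 792 ± 109.8 CPM (adjusted p = 0.00339). Of 16 small leucine-rich proteoglycans, 3 rose, 3 fell and 10 did not pass, with a median log2 fold change of 0.04 (falls numbered 1 without P14 replicate 1 or 2 or normal adult replicate 4). Aspn, a proteoglycan that binds collagen, rose from 602 ± 173 to 1946 ± 354 CPM and Ogn from 427 ± 44.4 to 919 ± 264 CPM, whereas Dcn stood at 3768 ± 713 and 3250.0 ± 789 CPM with overlap (adjusted p = 0.726).

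Among adhesion genes, Cdh11, the cadherin of mesenchyme, stood at 149, 99.1, 156 and 172 CPM in the normal adult libraries and 615, 602, 570.3 and 518 CPM in the P14 libraries (log2 fold change 2.00 ± 0.26 at adjusted p = 0.000403). All P14 libraries were over 3 times the highest adult library. Cdh2 and Cdh6, other cadherins, changed by 1.90 ± 0.41 and 1.69 ± 0.36, and the gap junction genes Gjc1 and Gjc3 by 1.57 ± 0.23 and 3.23 ± 0.51. Of the 16 cadherins and gap junction genes, 8 rose, 2 fell and 6 did not pass, with a median log2 fold change of 1.26 (falls numbered 1 without P14 replicate 1, 2 or 4 or normal adult replicate 2 or 4). Cdh1, the epithelial cadherin, was among the falls (-2.82 ± 0.68, with P14 replicate 4 at 126 CPM and the others at 21.3 to 22.3 CPM).

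The members that make up the smooth muscle sum were also counted singly. Of 14 smooth muscle markers, 13 rose, 0 fell and 1 did not pass, with a median log2 fold change of 1.86, and 13 rose whichever library was left out. Myl9, the regulatory light chain of smooth muscle myosin, stood at 274, 179, 249 and 300.1 CPM in the normal adult libraries and 1249, 1433, 818 and 762 CPM in the P14 libraries (log2 fold change 2.09 ± 0.26 at adjusted p = 0.000314). P14 replicates 1 and 2 were higher than replicates 3 and 4, and all were above the adult range. The CArG box is the site of serum response factor in promoters of contractile genes. In the RefSeq promoter table of GRCm38.p6, it was found within the 250 bases before the start in 482 of 32851 promoters (1.47%), in 1 of the 10 smooth muscle markers with an entry, Myl9, and it is shown for that reason with the box in capitals (chr2:156775278-156775337, plus strand, 161 bases before the start).
Myl9: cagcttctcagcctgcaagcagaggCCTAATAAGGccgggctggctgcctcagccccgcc

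Of 28 ion channel genes of contractile and pacemaker cells, 20 rose, 1 fell and 7 did not pass, with a median log2 fold change of 1.07 (falls numbered 0 without P14 replicate 2, 3 or 4 or normal adult replicate 1, 3 or 4), and the number of rises was 15 to 20 when 1 library was left out. Kcnma1, the large calcium-activated potassium channel, stood at 30.1, 22.9, 24.99 and 28.2 CPM in the normal adult libraries and 66.1, 68.98, 81.6 and 54.6 CPM in the P14 libraries (log2 fold change 1.35 ± 0.19 at adjusted p = 0.000582). The groups did not overlap, and P14 replicate 3 was the highest. Ryr2, a calcium release channel of muscle, changed by 1.86 ± 0.35, Trpc6, a cation channel, by 1.40 ± 0.24, and Cacna2d1, a calcium channel subunit, by 1.02 ± 0.18.

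Of 35 receptors and effectors for neuropeptides and transmitters, 16 rose, 3 fell and 16 did not pass, with a median log2 fold change of 0.90, and the number of rises was 10 to 16 when 1 library was left out (10 without normal adult replicate 2). Chrm2, the muscarinic receptor that is common on gut smooth muscle, stood at 1.73, 2.36, 2.02 and 2.45 CPM in the normal adult libraries and 35.8, 40.3, 13.3 and 13.6 CPM in the P14 libraries (log2 fold change 3.59 ± 0.51 at adjusted p = 0.000596). Its P14 replicates 1 and 2 were over 2 times replicates 3 and 4, and the adult libraries were all at or under 2.45 CPM. Chrm3, its partner receptor, stood at 3.46 ± 0.632 and 4.80 ± 0.875 CPM and did not pass (adjusted p = 0.252). P2rx1, an ATP-gated channel of smooth muscle, rose from 4.32 ± 1.02 to 15.5 ± 4.47 CPM, and Prkg1, the kinase that relays nitric oxide signals, from 49.8 ± 14.9 to 146 ± 17.7 CPM.

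Neurotrophic factors and their receptors guide enteric neurons and glia. Of 20 such genes, 11 rose, 2 fell and 7 did not pass, with a median log2 fold change of 1.05 (falls numbered 1 without P14 replicate 1, 2 or 3 or normal adult replicate 2, 3 or 4), and the number of rises was 10 to 12 when 1 library was left out. Bdnf, the brain-derived neurotrophic factor (ENSMUSG00000048482, chromosome 2, 109674700 to 109727007 on the plus strand), stood at 2.15, 1.18, 2.20 and 1.94 CPM in the normal adult libraries and 15.1, 15.4, 19.8 and 18.9 CPM in the P14 libraries. The lowest P14 value was over 6 times the highest adult value (log2 fold change 3.21 ± 0.29 at adjusted p = 6.95e-05). Edn3, the endothelin that enteric neural crest needs to colonise the colon, stood at 11.5, 10.9, 12.7 and 15.9 CPM in the normal adult libraries and 31.3, 38.4, 34.4 and 30.8 CPM in the P14 libraries (log2 fold change 1.40 ± 0.20 at adjusted p = 0.000582). Its receptor Ednrb rose from 52.9 ± 15.4 to 119 ± 20.6 CPM. The receptors Ntrk3 and Ngfr rose from 6.99 ± 2.35 to 29.1 ± 7.18 CPM and 5.13 ± 1.68 to 19.8 ± 3.88 CPM, and Nrtn, the ligand neurturin, from 3.11 ± 1.004 to 8.88 ± 1.06 CPM. Edn2, an endothelin of intestinal epithelium, fell from 8.66 ± 3.39 to 0.808 ± 0.578 CPM, with P14 replicate 4 at 1.67 CPM and the others at 0.484 to 0.549 CPM.

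Of 14 enteric glia markers, 7 rose, 2 fell and 5 did not pass, with a median log2 fold change of 1.13 (falls numbered 1 without P14 replicate 1, 2 or 3 or normal adult replicate 2, 3 or 4), and the number of rises was 3 to 7 when 1 library was left out (3 without P14 replicate 1, 4 without P14 replicate 2 or normal adult replicate 2 or 3). Fabp7, the fatty acid binding protein of immature glia, stood at 2.53, 1.25, 1.33 and 1.81 CPM in the normal adult libraries and 34.3, 26.8, 8.78 and 9.60 CPM in the P14 libraries (log2 fold change 3.51 ± 0.53 at adjusted p = 0.000772). P14 replicates 1 and 2 were again the highest. Ncam1, an adhesion molecule of glia and immature neurons, rose from 108 ± 22.4 to 253 ± 47.4 CPM, whereas Erbb3, a neuregulin receptor that epithelium also makes, fell from 204 ± 57.2 to 65.1 ± 20.9 CPM. Of 14 enteric neuron markers, 10 rose, 0 fell and 4 did not pass, with a median log2 fold change of 2.00. Of 12 markers of interstitial cells of Cajal, the pacemaker cells of the gut, 2 rose, 2 fell and 8 did not pass, with a median log2 fold change of 0.13. Kit and Ano1, their defining genes, stood at 75.8 ± 17.6 and 103 ± 31.1 CPM and 230.3 ± 29.5 and 218 ± 30.9 CPM, with overlap in both (adjusted p = 0.393 and 0.802). Etv1 rose from 14.96 ± 3.43 to 35.9 ± 4.47 CPM and Thbs4 fell from 126 ± 49.01 to 21.6 ± 8.38 CPM.

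Growth hormone acts through insulin-like growth factor 1 (IGF1), whose binding proteins and their proteases set how much ligand is free. Of 23 genes of this axis, 12 rose, 1 fell and 10 did not pass, with a median log2 fold change of 0.60, and the number of rises was 6 to 12 when 1 library was left out (6 without normal adult replicate 3, 7 without P14 replicate 3). Igf1 stood at 93.3, 69.9, 83.9 and 65.4 CPM in the normal adult libraries and 234, 258, 208 and 209 CPM in the P14 libraries, without overlap (log2 fold change 1.54 ± 0.25 at adjusted p = 0.00108). Pappa2, the protease that frees IGF from its binding proteins, stood at 7.30, 9.40, 14.4 and 11.1 CPM in the normal adult libraries and 121, 93.03, 57.1 and 66.6 CPM in the P14 libraries (adjusted p = 0.00812). All P14 values were at least 57.1 CPM and all adult values at most 14.4 CPM. Grb10, an imprinted adaptor that dampens the receptor, rose from 73.5 ± 13.4 to 238 ± 26.9 CPM, and Socs2, a feedback inhibitor of growth hormone signals, from 30.1 ± 2.04 to 59.3 ± 8.10 CPM. Igfbp6, a binding protein with preference for IGF2, fell from 261 ± 57.3 to 62.5 ± 20.8 CPM (adjusted p = 0.0045).

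Midkine and pleiotrophin are heparin-binding growth factors of embryonic tissue. Of 13 genes of this system, 7 rose, 3 fell and 3 did not pass, with a median log2 fold change of 0.90. Mdk, the ligand midkine, rose from 5.76 ± 1.40 to 137 ± 35.3 CPM. Ptn, the second ligand, stood at 20.7, 16.8, 33.3 and 27.3 CPM in the normal adult libraries and 235, 268, 102 and 97.2 CPM in the P14 libraries (log2 fold change 2.84 ± 0.37 at adjusted p = 0.000376). P14 replicates 1 and 2 were over 2 times replicates 3 and 4, which were still over 2 times every adult library. The receptors Ptprz1, Itga4 and Ptprs rose, by 2.28 ± 0.47, 1.79 ± 0.27 and 0.90 ± 0.15 on the log2 scale, and Itga6 changed by -1.40 ± 0.25.

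Of the FGF, EGF and WNT lists, only the EGF list held more falls than rises. Of 19 FGF genes, 5 rose, 4 fell and 10 did not pass, with a median log2 fold change of 0.09, and the number of falls was 1 to 3 when 1 library was left out (1 without normal adult replicate 2 or 3, 2 without P14 replicate 1, 2, 3 or 4). Spry1, a feedback inhibitor of receptor tyrosine kinases, rose from 21.8 ± 3.15 to 59.4 ± 11.4 CPM (adjusted p = 0.000189), and the receptor Fgfr2 from 101 ± 15.1 to 173 ± 17.2 CPM. Of 15 EGF family genes, 1 rose, 7 fell and 7 did not pass, with a median log2 fold change of -0.51. The single rise was Ereg, the ligand epiregulin, at 46.7, 45.02, 41.2 and 48.8 CPM in the normal adult libraries and 152, 146, 503 and 274 CPM in the P14 libraries (log2 fold change 2.56 ± 0.57 at adjusted p = 0.00531). P14 replicate 3 was the highest, and no P14 library overlapped the adult range. The falls were led by the ligands Hbegf and Egf and the receptor Erbb2, at -1.99 ± 0.35, -1.71 ± 0.30 and -1.11 ± 0.22. P14 replicate 4 was the highest P14 library in all 3, and the part of epithelial RNA in these falls was not tested.

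Of 16 WNT ligands and R-spondins, 5 rose, 2 fell and 9 did not pass, with a median log2 fold change of 0.29, and the number of rises was 2 to 4 when 1 library was left out (2 without normal adult replicate 2 or 3, 3 without P14 replicate 1, 2, 3 or 4 or normal adult replicate 1). Rspo3, the R-spondin that boosts WNT signals in crypts, stood at 8.65, 6.75, 6.92 and 6.88 CPM in the normal adult libraries and 21.5, 18.7, 15.8 and 19.5 CPM in the P14 libraries (log2 fold change 1.37 ± 0.33 at adjusted p = 0.00839), without overlap. Wnt4 rose from 16.9 ± 5.24 to 37.5 ± 10.98 CPM, while Wnt10b fell from 11.2 ± 1.34 to 2.19 ± 0.995 CPM and Wnt11 from 13.04 ± 1.18 to 8.19 ± 0.246 CPM. Among WNT feedback genes Apcdd1, a membrane inhibitor, rose from 19.3 ± 1.91 to 44.9 ± 5.96 CPM, and Axin2, a general target, stood at 11.8 ± 1.94 and 13.5 ± 1.55 CPM and did not pass (adjusted p = 0.77).

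Of 20 BMP genes, 8 rose, 0 fell and 12 did not pass, with a median log2 fold change of 0.29. Id4, a target that blocks differentiation factors, stood at 18.7, 14.1, 16.7 and 19.5 CPM in the normal adult libraries and 76, 79.01, 75.6 and 51.4 CPM in the P14 libraries (log2 fold change 2.03 ± 0.19 at adjusted p = 7.06e-05). Id2, a sister gene, rose from 30.4 ± 4.97 to 79.9 ± 5.68 CPM, and Bambi, a decoy receptor, from 33.2 ± 5.61 to 60.3 ± 7.40 CPM. The ligands Gdf11 and Gdf10 rose from 8.37 ± 0.992 to 28.6 ± 0.935 CPM and 16.2 ± 4.73 to 44.6 ± 6.61 CPM, whereas the ligands Bmp2 and Bmp3 did not pass, at 0.40 ± 0.32 and -0.65 ± 0.31.

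Of 17 Notch pathway genes, 7 rose, 0 fell and 10 did not pass, with a median log2 fold change of 0.63. The ligand Jag1 stood at 45.6, 54.3, 52.4 and 61.9 CPM in the normal adult libraries and 84.5, 91.2, 107 and 87.99 CPM in the P14 libraries (log2 fold change 0.79 ± 0.14 at adjusted p = 0.00163). Beyond the first 3 members of this list, the rule names only called members, and no called member fell. Among those named, the target genes Hey2, Heyl, Hey1 and Hes1 changed by 2.23 ± 0.44, 1.67 ± 0.31, 1.36 ± 0.24 and 0.63 ± 0.14, all without overlap. Notch1 and Notch2 did not pass (adjusted p = 0.32 and 0.39). The core site of the Notch cofactor RBPJ (GTGGGAA, or TTCCCAC on the other strand) lay in the 250 bases before the start of 2 of 13 Notch genes with an entry and of 1779 of 32851 promoters (5.42%). The share was 6.68% over tested genes, 6.37% over genes that rose and 8.14% over genes that fell. The stretch of Hey2 that holds it is shown since Hey2 had the largest fold of these targets (chr10:30842959-30843015, minus strand, 207 bases before the start, site in capitals).
Hey2: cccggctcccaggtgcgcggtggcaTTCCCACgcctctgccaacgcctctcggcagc

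Axon guidance genes act on vessels and mesenchyme as well as on nerves. Of 47, 18 rose, 6 fell and 23 did not pass, with a median log2 fold change of 0.46, and the number of rises was 17 to 20 when 1 library was left out. Epha3, an ephrin receptor of embryonic mesenchyme, stood at 7.21, 6.27, 10.1 and 9.37 CPM in the normal adult libraries and 80.2, 77.8, 51.4 and 35.3 CPM in the P14 libraries (log2 fold change 2.89 ± 0.38 at adjusted p = 0.000383). Epha5 stood at 0.865, 0.774, 1.23 and 1.53 CPM in the normal adult libraries and 16.98, 12.7, 23.2 and 14.3 CPM in the P14 libraries (log2 fold change 3.93 ± 0.41 at adjusted p = 0.000131). Both receptors were higher in every P14 library, Epha3 with its highest values in replicates 1 and 2 and Epha5 with its highest value in replicate 3. Epha7 and Epha4 rose by 2.27 ± 0.22 and 1.43 ± 0.21 on the log2 scale. The secreted repellent Sema3a rose from 46.6 ± 11.5 to 193 ± 51.6 CPM, and its relative Sema3c stood at 547 ± 36.9 and 607 ± 152 CPM with overlap. Efna1, a ligand of these receptors, fell from 43.9 ± 14.1 to 11.2 ± 2.11 CPM (adjusted p = 0.000338).

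**Figure D4:**
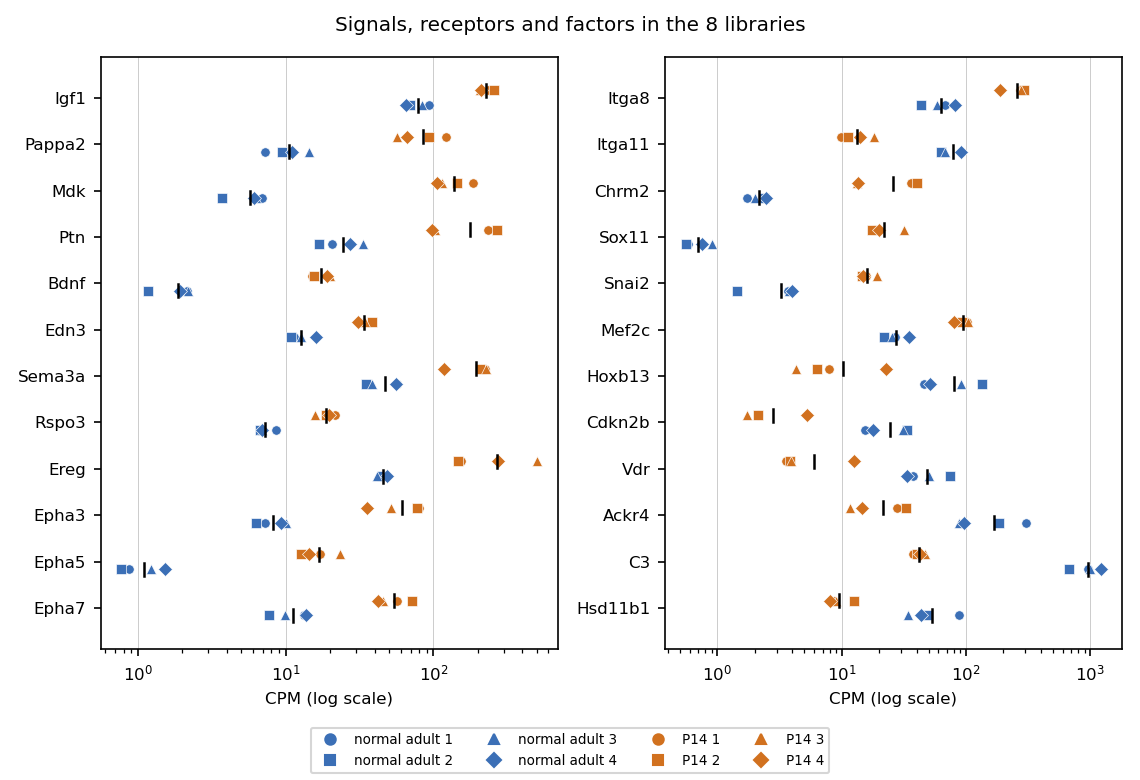
CPM on log axes of 24 genes of signalling, adhesion, transcription and immunity in each library, with normal adult libraries in blue, P14 libraries in orange, 1 marker shape per replicate and black bars at group means. No gene shown overlaps between groups, and 17 are higher and 7 lower in all P14 libraries.

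Among vessel and blood cell factors, Angptl4, a secreted inhibitor of lipoprotein lipase that also acts on vessels, stood at 16.3, 17.6, 10.2 and 16.02 CPM in the normal adult libraries and 64.7, 75.1, 63.3 and 75.02 CPM in the P14 libraries (log2 fold change 2.21 ± 0.27 at adjusted p = 0.000256). Kitl, the ligand of Kit, rose from 75.4 ± 6.07 to 146 ± 15.7 CPM, and Pdgfc and the receptor-like Pdgfrl rose from 8.79 ± 1.84 to 23.03 ± 6.73 CPM and 3.06 ± 0.542 to 13.8 ± 2.60 CPM. Vegfa, the main vessel growth factor, stood at 113 ± 9.55 and 109 ± 32.8 CPM and overlapped (adjusted p = 0.893).

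Transcription factors of mesenchyme and embryo were tested as 4 lists. Of 60 T-box, homeobox, bHLH and related factors, 17 rose, 5 fell and 38 did not pass, with a median log2 fold change of 0.50. Pbx3, a Hox cofactor, rose from 14.9 ± 2.06 to 47.95 ± 11.2 CPM, Mef2c, a muscle and mesenchyme factor, from 27.2 ± 5.51 to 94.9 ± 10.5 CPM, and Hand2, a factor of enteric neural crest and mesenchyme, from 1.67 ± 0.548 to 7.11 ± 2.67 CPM. Snai2, a factor of migrating mesenchyme, stood at 3.72, 1.44, 3.75 and 3.99 CPM in the normal adult libraries and 15.6, 14.7, 19.1 and 14.9 CPM in the P14 libraries (log2 fold change 2.31 ± 0.32 at adjusted p = 0.000526), without overlap. Of 15 Sox genes, 5 rose, 1 fell and 9 did not pass, with a median log2 fold change of 0.10. Sox11, a factor of embryonic tissues, stood at 0.577, 0.553, 0.901 and 0.750 CPM in the normal adult libraries and 18.2, 17.5, 31.7 and 20.1 CPM in the P14 libraries (log2 fold change 4.97 ± 0.50 at adjusted p = 9.34e-05). The lowest P14 library was over 19 times the highest adult one. Its relatives Sox4 and Sox12 changed by 1.27 ± 0.26 and 1.69 ± 0.35. Of 26 forkhead genes, 8 rose, 2 fell and 16 did not pass, with a median log2 fold change of 0.19 (falls numbered 1 without P14 replicate 2 or normal adult replicate 2). Foxs1, a factor of pericytes, rose from 1.49 ± 0.303 to 8.64 ± 0.560 CPM, and Foxf2, of gut mesenchyme, from 15.4 ± 3.87 to 29.2 ± 7.91 CPM.

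Hox genes set position along the gut. Of 26 Hox genes, 4 rose, 3 fell and 19 did not pass, with a median log2 fold change of 0.23, and the number of rises was 1 to 3 when 1 library was left out (1 without P14 replicate 1 or 2 or normal adult replicate 1, 2 or 3, 2 without normal adult replicate 4). Hoxb13, a hindgut gene, stood at 45.8, 135, 90.3 and 51.7 CPM in the normal adult libraries and 7.83, 6.38, 4.32 and 22.6 CPM in the P14 libraries (log2 fold change -2.97 ± 0.51 at adjusted p = 0.0015). P14 replicate 4 was the highest P14 library, as it was for epithelial markers. Hoxa11 rose from 9.01 ± 1.98 to 17.8 ± 0.781 CPM, and Hoxa7 and Hoxb6 fell from 5.40 ± 0.839 to 2.27 ± 0.318 CPM and 4.48 ± 0.495 to 2.08 ± 0.360 CPM.

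Chromatin genes were called higher in 33.3% and lower in 10%, against 14.9% and 16% of all tested genes. Of 30, 10 rose, 3 fell and 17 did not pass, with a median log2 fold change of 0.33, and the number of rises was 6 to 10 when 1 library was left out (6 without P14 replicate 1 or 2 or normal adult replicate 1, 3 or 4). Dnmt3a, a DNA methyltransferase, stood at 59.8, 63.3, 66.8 and 70.2 CPM in the normal adult libraries and 149, 169, 187 and 150.4 CPM in the P14 libraries (log2 fold change 1.33 ± 0.18 at adjusted p = 0.000403). Tet1, which oxidises methylcytosine, rose from 9.94 ± 2.61 to 37.4 ± 5.57 CPM (adjusted p = 0.00125). Cbx7, a Polycomb reader, and Ezh1, the Polycomb methyltransferase of resting cells, fell, from 27.2 ± 5.55 to 9.82 ± 2.46 CPM and 64.3 ± 5.74 to 38.02 ± 3.04 CPM. Of 18 tested oncofetal and embryonic growth genes, 12 rose, 0 fell and 6 did not pass, with a median log2 fold change of 1.16 (falls numbered 2 without P14 replicate 4). Among them Gpc3, a heparan sulfate proteoglycan that limits body growth, rose from 76.3 ± 21.9 to 244 ± 49.6 CPM, and the imprinted factors Peg3 and Zim1, neighbours in 1 domain, from 62.7 ± 21.5 to 198 ± 31.1 CPM and 2.27 ± 0.830 to 25.3 ± 16.8 CPM.

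Replication and mitosis lists held more rises than falls. Of 30 genes of S phase and replication, 12 rose, 0 fell and 18 did not pass, with a median log2 fold change of 0.67, and the number of rises was 9 to 17 when 1 library was left out. Mcm4, a subunit of the replicative helicase, stood at 24.3, 23.7, 19.5 and 20.9 CPM in the normal adult libraries and 71.9, 56.7, 57.2 and 56.8 CPM in the P14 libraries (log2 fold change 1.46 ± 0.13 at adjusted p = 6.95e-05). Ccne1, the cyclin that starts S phase, stood at 3.46, 2.77, 3.75 and 2.52 CPM in the normal adult libraries and 14.5, 13.4, 11.9 and 12.2 CPM in the P14 libraries (log2 fold change 2.06 ± 0.19 at adjusted p = 7.53e-05). Both had narrow ranges in each group and no overlap. Ccne2, Rrm1, a subunit of ribonucleotide reductase, and Cdc6, a loader of the helicase, changed by 1.82 ± 0.30, 0.90 ± 0.19 and 1.30 ± 0.31. Of 28 mitosis genes, 11 rose, 1 fell and 16 did not pass, with a median log2 fold change of 0.87, and the number of rises was 8 to 16 when 1 library was left out. Anln, a protein of the contractile ring, rose from 14.1 ± 3.91 to 44.8 ± 8.73 CPM, and Bub1, a spindle checkpoint kinase, from 5.25 ± 2.34 to 15.9 ± 2.53 CPM.

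E2F factors switch on many replication genes through sites with the core GCGGGAA, which reads as TTCCCGC on the other strand. This core lay in the 250 bases before the start of 6 of 24 replication genes with an entry, against 3.82% of all promoters and 7.44% of tested genes. It was found in 8.86% of the genes called higher and in 5.52% of those called lower. Of the 6, the genes called higher were Rrm1 and Cdc6, and their stretches are shown for that reason, 67 and 138 bases before the start on the plus strand (chr7:102441603-102441659 and chr11:98907988-98908044, core in capitals).
Rrm1: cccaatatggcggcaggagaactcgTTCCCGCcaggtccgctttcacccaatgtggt
Cdc6: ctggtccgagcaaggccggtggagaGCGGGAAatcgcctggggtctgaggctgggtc

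Cell cycle inhibitors held more rises than falls. Of 16, 7 rose, 1 fell and 8 did not pass, with a median log2 fold change of 0.48 (falls numbered 2 without P14 replicate 4), and the number of rises was 3 to 7 when 1 library was left out (3 without P14 replicate 1 or 2, 4 without normal adult replicate 2 or 3). Cdkn2b, an inhibitor of the G1 kinases, stood at 15.5, 33.4, 31.2 and 17.8 CPM in the normal adult libraries and 2.12, 2.14, 1.73 and 5.28 CPM in the P14 libraries (log2 fold change -3.11 ± 0.49 at adjusted p = 0.00092). It was lower in every P14 library, with replicate 4 the highest of these. Cdkn2c, a relative, rose from 15.5 ± 1.36 to 39.3 ± 8.47 CPM, and Gadd45b, a stress-induced regulator, from 130.3 ± 27.3 to 414 ± 60.01 CPM. Among YAP genes, Wwtr1, which encodes the YAP partner TAZ, rose from 101 ± 13.9 to 221 ± 14.7 CPM, its DNA-binding partner Tead2 from 17.2 ± 2.52 to 57.01 ± 13.4 CPM, and the target Ccn1 from 192 ± 22.3 to 409.9 ± 7.86 CPM. Of 51 cytosolic ribosomal protein genes, 1 rose, 0 fell and 50 did not pass, with a median log2 fold change of -0.22.

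Nuclear receptors are transcription factors that bind hormones and lipids. Of 41 nuclear receptors, 8 rose, 17 fell and 16 did not pass, with a median log2 fold change of -0.07. Nr1h3, the oxysterol receptor of fibroblasts and macrophages, stood at 19.4, 16.7, 16.4 and 16.5 CPM in the normal adult libraries and 5.28, 6.13, 6.15 and 6.45 CPM in the P14 libraries (log2 fold change -1.52 ± 0.20 at adjusted p = 0.000403). The P14 libraries were alike in it, replicate 4 included. Vdr, the vitamin D receptor, stood at 37.5, 74.7, 50.1 and 33.5 CPM in the normal adult libraries and 3.57, 3.81, 3.87 and 12.6 CPM in the P14 libraries (log2 fold change -3.04 ± 0.46 at adjusted p = 0.000804). Here P14 replicate 4 was over 3 times each of the other P14 libraries. Nr3c2, the mineralocorticoid receptor, and Nr1i2, the xenobiotic receptor, changed by -2.70 ± 0.44 and -2.98 ± 0.48, Thrb, a thyroid hormone receptor, by -1.31 ± 0.20 and Rarb, a retinoic acid receptor, by 1.36 ± 0.19.

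Of 43 genes of xenobiotic metabolism, 1 rose, 25 fell and 17 did not pass, with a median log2 fold change of -1.48, and the number of falls was 24 to 26 when 1 library was left out. Gstm1, a glutathione transferase, stood at 83.3, 65.2, 63.3 and 71.02 CPM in the normal adult libraries and 25.4, 26.9, 26.3 and 29.4 CPM in the P14 libraries (log2 fold change -1.39 ± 0.13 at adjusted p = 8.04e-05). Ces1g, a carboxylesterase that cleaves drug and lipid esters, stood at 19.4, 27.4, 32.8 and 15.8 CPM in the normal adult libraries and 1.02, 1.33, 1.66 and 1.42 CPM in the P14 libraries (log2 fold change -4.13 ± 0.35 at adjusted p = 5.9e-05). In both genes the P14 libraries lay close together. Aox1, the aldehyde oxidase, fell from 40.95 ± 10.9 to 14.7 ± 1.94 CPM, and Gsta3 from 25.1 ± 6.90 to 3.75 ± 1.40 CPM. The falls with the largest conservative change over all genes included the sulfotransferases Sult1a1 and Sult1c2, the reductase Akr1c19 and the protease Cela1, at -4.05 ± 0.36, -4.55 ± 0.60, -4.37 ± 0.50 and -4.25 ± 0.44, and in these 4 P14 replicate 4 was the highest P14 library. In 15 of the 43 genes P14 replicate 4 was at least 2 times the mean of the other P14 libraries, a ratio chosen after seeing the data, against 7.86% of all tested genes, 34.9% of the genes called lower and 20 of 20 epithelial markers. Glutathione transferases, carboxylesterases and aldo-keto reductases have close copies in the genome, so reads may be split between them.

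**Figure D5:**
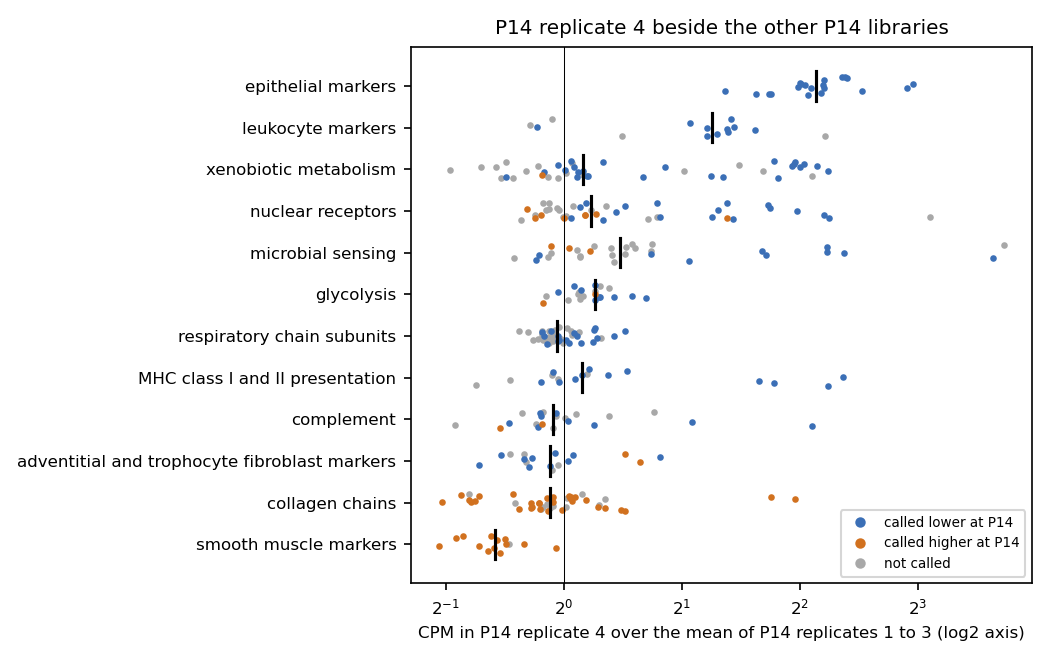
CPM of single genes in P14 replicate 4 divided by the mean of P14 replicates 1 to 3, on a log2 axis, for members of 12 lists, with list medians as black bars. Epithelial markers have a median of 4.41 and leukocyte markers of 2.39, whereas adventitial, complement and respiratory chain genes have medians of 0.924, 0.94 and 0.96.

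Of 21 genes of glucocorticoid metabolism and response, 6 rose, 9 fell and 6 did not pass, with a median log2 fold change of -0.45. Hsd11b1, which makes active glucocorticoid inside the cell, stood at 87.8, 48.7, 34 and 43.4 CPM in the normal adult libraries and 8.68, 12.4, 8.98 and 8.04 CPM in the P14 libraries (log2 fold change -2.49 ± 0.50 at adjusted p = 0.00307). Fkbp5 and Zbtb16, glucocorticoid targets, fell from 51.3 ± 11.4 to 15.96 ± 6.004 CPM and 18.1 ± 4.55 to 7.57 ± 0.695 CPM, and the metallothionein Mt1 from 229 ± 32.99 to 126 ± 16.9 CPM. No value of these 4 genes overlapped between groups. Ddit4, also a target and a stress gene, rose from 15.7 ± 2.08 to 37.6 ± 10.3 CPM. Of 21 retinoid genes tested, 6 rose, 3 fell and 12 did not pass, with a median log2 fold change of 0.03 (rises numbered 3 without P14 replicate 2 or 3 or normal adult replicate 2 or 3). Adh1, an alcohol dehydrogenase that also oxidises retinol, fell from 272 ± 74.01 to 25.2 ± 11.5 CPM, with replicate 4 the highest P14 library, and Aldh1a1 from 237 ± 26.3 to 98.2 ± 18.2 CPM, whereas Aldh1a2, the retinoic acid synthesising enzyme of mesenchyme, rose from 25.4 ± 3.88 to 60.6 ± 12.1 CPM. Of 21 clock genes, 6 rose, 4 fell and 11 did not pass, with a median log2 fold change of 0.19 (rises numbered 2 without normal adult replicate 1 or 2, 3 without P14 replicate 3). Among those that fell, the activators Npas2 and Arntl fell from 15.01 ± 2.75 to 3.43 ± 1.62 CPM and 67.01 ± 16.3 to 34.2 ± 3.93 CPM, and the repressor Nr1d1 from 46.7 ± 12.3 to 13.1 ± 3.95 CPM. The time of day of sampling is not given in the labels.

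Of 44 respiratory chain subunits, 0 rose, 18 fell and 26 did not pass, with a median log2 fold change of -0.60, and the number of falls was 7 to 25 when 1 library was left out (7 without normal adult replicate 2, 8 without normal adult replicate 3, 9 without P14 replicate 3). Cox5a, a subunit of cytochrome oxidase, stood at 24, 44.4, 38.4 and 24.4 CPM in the normal adult libraries and 12.1, 11.3, 9.71 and 15.8 CPM in the P14 libraries (log2 fold change -1.42 ± 0.26 at adjusted p = 0.00211). Sdha, a subunit of succinate dehydrogenase, fell from 217 ± 33.4 to 128 ± 15.3 CPM. Normal adult replicates 2 and 3, which had the highest epithelial sums, were also the highest in both genes, and whether epithelial RNA took part was not tested. P14 replicate 4 was at a median of 0.96 times the other P14 libraries over this list. Of 21 glycolysis genes, 2 rose, 10 fell and 9 did not pass, with a median log2 fold change of -0.49 (rises numbered 1 without P14 replicate 3 or 4 or normal adult replicate 2 or 3). Hk2, a hexokinase, fell from 402 ± 55.03 to 154 ± 66.3 CPM, and Slc2a1, the glucose transporter, from 98.6 ± 25.6 to 43.8 ± 17.1 CPM, whereas the muscle isoform Pfkm rose from 26.97 ± 2.31 to 44.6 ± 5.45 CPM. Of 30 genes of fatty acid handling, 2 rose, 11 fell and 17 did not pass, with a median log2 fold change of -0.54, and the number of falls was 6 to 10 when 1 library was left out (6 without normal adult replicate 2, 7 without P14 replicate 1 or 2 or normal adult replicate 3). In the summed CPM of the glycolysis and of the fatty acid genes, normal adult replicates 2 and 3 were the highest adult libraries, as for epithelial markers. P14 replicate 4 was the highest P14 library in both sums, and the part of epithelial RNA in these falls was not tested.

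Adventitial fibroblasts surround vessels below the crypts and are known for CD81, PI16, Ly6a and complement. Of 17 adventitial and trophocyte markers, 2 rose, 10 fell and 5 did not pass, with a median log2 fold change of -1.27, and the number of falls was 9 to 10 when 1 library was left out. Ly6a, the surface antigen SCA1, stood at 172, 171, 161 and 161 CPM in the normal adult libraries and 48.4, 45.8, 50.8 and 44.6 CPM in the P14 libraries (log2 fold change -1.81 ± 0.17 at adjusted p = 8.04e-05). Pi16 stood at 194, 158, 178 and 197 CPM in the normal adult libraries and 25.6, 32.04, 14.8 and 19.7 CPM in the P14 libraries (log2 fold change -2.98 ± 0.50 at adjusted p = 0.00134). Both fell without overlap. No list member had a replicate 4 value at least 2 times the mean of the other P14 libraries, against 7.86% of all tested genes and 34.9% of the genes called lower. This ratio was chosen after seeing the data, the list is short, and the part of epithelial RNA in its falls was not tested. Ackr4, a scavenger of chemokines, stood at 301, 184, 87.5 and 96.9 CPM in the normal adult libraries and 27.8, 32.6, 11.7 and 14.6 CPM in the P14 libraries (log2 fold change -2.95 ± 0.52 at adjusted p = 0.00162). Adult replicates 1 and 2 were the highest in it, and all P14 values lay below every adult value. Dpp4, a surface peptidase, fell from 44.4 ± 10.5 to 10.3 ± 4.51 CPM, whereas Cd81 stood at 164 ± 13.1 and 196 ± 54.2 CPM with overlap (adjusted p = 0.349). In Dpp4 replicate 4 was the highest P14 library, at 15.2 CPM, and the part of epithelial RNA in its fall was not tested.

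Of 22 subepithelial fibroblast markers, by contrast, 7 rose, 1 fell and 14 did not pass, with a median log2 fold change of 0.40. F3, tissue factor, fell from 168 ± 41.3 to 42.9 ± 16.8 CPM, and Foxl1, a factor of the fibroblasts next to the crypt, stood at 13.6 ± 1.93 and 19.01 ± 6.02 CPM with overlap (adjusted p = 0.274).

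Of 21 complement genes, 2 rose, 9 fell and 10 did not pass, with a median log2 fold change of -0.49, and the number of falls was 6 to 8 when 1 library was left out. C3, the central component (ENSMUSG00000024164, chromosome 17, 57203970 to 57228136 on the minus strand), stood at 958, 675, 994 and 1224 CPM in the normal adult libraries and 37.6, 39.97, 47.1 and 42.5 CPM in the P14 libraries. The lowest adult value was over 14 times the highest P14 value, and the 4 P14 libraries lay within 10 CPM of each other (log2 fold change -4.53 ± 0.58 at adjusted p = 0.000346). The component C4b fell from 208 ± 68.5 to 43.6 ± 7.16 CPM, and Vtn, vitronectin, rose from 4.89 ± 1.21 to 13.7 ± 2.002 CPM. C1ra and C1s1, proteases of the first step, did not pass (adjusted p = 0.63 and 0.383).

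Antigen presentation genes show peptides to T cells. Of 17 genes of MHC class I and II presentation, 0 rose, 12 fell and 5 did not pass, with a median log2 fold change of -1.24, and the number of falls was 9 to 12 when 1 library was left out. H2-T23, a nonclassical class I gene, stood at 183, 212, 211 and 176 CPM in the normal adult libraries and 47.5, 49.1, 61.3 and 51.2 CPM in the P14 libraries (log2 fold change -1.90 ± 0.21 at adjusted p = 0.000177). H2-Eb1, of class II, stood at 27.9, 31.5, 27.7 and 32.2 CPM in the normal adult libraries and 1.79, 1.58, 1.83 and 5.97 CPM in the P14 libraries (log2 fold change -3.41 ± 0.45 at adjusted p = 0.000411). H2-Eb1 was highest of the P14 libraries in replicate 4, as the leukocyte sum was, whereas H2-T23 was not, and the part of leukocyte RNA was not tested. B2m, the shared light chain of class I, stood at 187 ± 7.57 and 154 ± 9.89 CPM and did not pass (adjusted p = 0.262). Class I genes are close copies of each other, so their counts are uncertain.

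Shares called higher and lower were 13.9% and 25% for cytokine genes and 20.8% and 25% for chemokine genes. Over all tested genes they were 14.9% and 16%. Of 36 cytokine genes, 5 rose, 9 fell and 22 did not pass, with a median log2 fold change of -0.23. Il7, which stromal cells make for lymphocytes, stood at 10.7, 10.3, 10.2 and 9.06 CPM in the normal adult libraries and 2.64, 2.54, 2.97 and 3.66 CPM in the P14 libraries (log2 fold change -1.77 ± 0.20 at adjusted p = 0.000155). Il18, an epithelial cytokine, fell from 70.6 ± 24.6 to 9.32 ± 6.003 CPM, with P14 replicate 4 the highest P14 library. Tslp, an alarmin, rose from 2.54 ± 0.915 to 14.8 ± 7.61 CPM, Lifr, the receptor of leukaemia inhibitory factor, from 63.9 ± 9.69 to 149 ± 37.7 CPM, and Il1rap, the shared chain of interleukin-1 receptors, from 22.9 ± 3.43 to 55.6 ± 4.37 CPM. Of 24 chemokine genes, 5 rose, 6 fell and 13 did not pass, with a median log2 fold change of 0.02, and the number of rises was 2 to 5 when 1 library was left out (2 without P14 replicate 3 or normal adult replicate 1, 2 or 3, 3 without P14 replicate 4). Cxcl10, an interferon-induced chemokine, stood at 7.85, 6.20, 10.4 and 8.66 CPM in the normal adult libraries and 35.1, 40.2, 83.4 and 80.9 CPM in the P14 libraries (log2 fold change 2.86 ± 0.33 at adjusted p = 0.000196). Replicates 3 and 4 were over 2 times replicates 1 and 2 among the P14 libraries. The scavenger receptor Ackr2 fell from 6.55 ± 1.57 to 0.806 ± 0.783 CPM.

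Of 44 interferon-stimulated genes, 6 rose, 8 fell and 30 did not pass, with a median log2 fold change of -0.08 (rises numbered 3 without normal adult replicate 2), and the number of falls was 5 to 10 when 1 library was left out (5 without P14 replicate 1 or 2). Oas1a and Rsad2 fell, from 20.1 ± 7.09 to 2.44 ± 1.72 CPM and 13.4 ± 4.21 to 3.53 ± 1.12 CPM, whereas Ifit2 and Ifit3 did not pass (adjusted p = 0.715 and 0.989). Of 30 genes of microbial sensing, 3 rose, 10 fell and 17 did not pass, with a median log2 fold change of -0.43, and the number of falls was 5 to 11 when 1 library was left out (5 without P14 replicate 2, 6 without P14 replicate 1 or normal adult replicate 2 or 3). Tlr4, the receptor of bacterial lipopolysaccharide, stood at 114, 111, 90.97 and 91.8 CPM in the normal adult libraries and 54.7, 55.5, 47.2 and 45.5 CPM in the P14 libraries (log2 fold change -1.01 ± 0.22 at adjusted p = 0.00465). Its groups did not overlap and P14 replicate 4 was the lowest library. Nlrp6, a sensor of intestinal epithelium, fell from 42.9 ± 14.4 to 5.91 ± 4.34 CPM, with replicate 4 the highest of the P14 libraries. Myd88, the adaptor of these receptors, rose from 35.2 ± 4.11 to 56.6 ± 2.57 CPM.

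Ptgs2, the inducible enzyme of prostaglandin synthesis, stood at 201, 140.3, 139 and 187 CPM in the normal adult libraries and 349, 383, 1193 and 657 CPM in the P14 libraries (log2 fold change 1.95 ± 0.43 at adjusted p = 0.00507). P14 replicate 3 was the highest library, and every P14 library was above every adult library. Hpgds, the prostaglandin D synthase, fell from 10.2 ± 2.01 to 2.30 ± 0.533 CPM, and Ptgs1, the constitutive enzyme, stood at 66.9 ± 11.1 and 66.1 ± 11.2 CPM with overlap. Genes that tissue digestion is known to induce moved in part. Of 22 immediate early and dissociation genes, 13 rose, 1 fell and 8 did not pass, with a median log2 fold change of 0.69, and the number of rises was 8 to 13 when 1 library was left out (8 without P14 replicate 3 or normal adult replicate 2 or 3). Nr4a2 and Nr4a3 rose from 40.2 ± 11.3 to 129 ± 50.3 CPM and 20.1 ± 4.22 to 89.5 ± 56.6 CPM, both highest in P14 replicate 3. Of 14 heat shock genes, 0 rose, 2 fell and 12 did not pass, with a median log2 fold change of -0.00 (falls numbered 0 without P14 replicate 3 or 4 or normal adult replicate 2, 1 without P14 replicate 1 or 2 or normal adult replicate 1 or 3). Hspa8, the constitutive chaperone, stood at 1735 ± 218 and 1729 ± 112 CPM (adjusted p = 0.988).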

How the data were processed

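RNA-seq was run on sorted colonic stroma of 3 groups of 4 mice (poly(A)-selected, strand-marking libraries, single-end reads, per the labels' protocols). The deposited values are raw counts of 19049 Ensembl genes in 12 libraries, in a single table. STAR 2.4.2a, edgeR 3.28.0 and GRCm38 are named in the submitters' processing notes, without roles. For the counting tool, its strand setting and the annotation, the sources used here give nothing, so overlapping genes and near-identical copies are uncertain. Symbols and positions are from GENCODE M21 (GRCm38), in which 19012 IDs matched and 37 did not. Promoters are from RefSeq (GRCm38.p6).

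Genes were filtered with filterByExpr (minimum count 10, minimum total 15), which left 18727 and removed 322. Counts were scaled by TMM and tested with edgeR 4.0.16 (R 4.3.3) by a quasi-likelihood F test, with all 12 libraries in the fit and Benjamini-Hochberg adjusted p under 0.05. The tumour libraries entered the filter, the scaling and the spread, and no comparison. The test was checked on simulated data. Alternatives were other scalings and filters, DESeq2 1.42.0, limma 3.58.1, other thresholds, a replicate block, leaving out libraries and an epithelial covariate. Figures were drawn with matplotlib 3.10.9 (Python 3.11.15).

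The comparison and the gene lists were chosen with earlier results of these data known. Genes to name came from a rule: the 12 rises and 12 falls with the largest log2 fold change less its margin of error, the 10 largest gains and 10 largest losses of mean CPM, genes under 0.5 CPM in 1 group and at least 5 CPM in the other, and in each list up to 6 called members by adjusted p and its first 3 members, or any member of a list of at most 12 tested. Predicted, immunoglobulin, T cell receptor, haemoglobin, mitochondrially encoded and chromosome Y genes, Xist and Tsix were left out of the first 3 kinds. Other genes of the X chromosome were kept. The text describes only some of the genes that the rule gives, picked with their values known. Lists are described by counts beside the share over all tested genes, with no test of the list. The labels give the mice as separate samples, with no litter, batch or date. The p-values set the difference between groups against the spread between samples within groups, estimated with all 12 libraries. Total counts of 26392364 to 38799033 put 1 count at under 0.04 CPM in every library.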

Additional observations from a re-analysis of the deposited data

Results flagged for a closer look

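Each gene named in the sections above and each marker sum was examined for a library far from the other 3 of its group. The measure was the gap to the nearest neighbour as a share of the group's range, against Dixon's 95% critical value for 4 libraries. Chance flags about 1 in 20 groups, and 54 of 512 groups were past the value. The highest P14 library was replicate 4, the one with the highest epithelial sum of its group, for Cdh1 (126 CPM), Cdkn2b (5.28 CPM), Edn2 (1.67 CPM), Fcgbp (476 CPM), H2-Eb1 (5.97 CPM), Hbegf (69.3 CPM), Hpgds (3.10 CPM), Krt8 (778 CPM), Lamb3 (47.8 CPM), Lgals4 (391 CPM), Lypd8 (549 CPM), Muc2 (398 CPM), Nlrp6 (12.4 CPM), Nr3c2 (29.6 CPM), Oas1a (5 CPM), Pigr (261 CPM), Slc13a1 (1.17 CPM), Sult1c2 (5.53 CPM) and Vdr (12.6 CPM), and for the summed epithelial markers (3655 CPM) and mesothelial markers (1190.0 CPM). The keratins Krt8 (778 CPM) and Krt19 (403 CPM), which epithelium makes too, hold nearly all of the mesothelial sum, and over the 11 mesothelial markers the median ratio of replicate 4 to the mean of the other P14 libraries was 0.49. The lowest was P14 replicate 4 for C1s1 (311 CPM) and Id4 (51.4 CPM). P14 replicate 3 stood above the others for Ackr2 (1.97 CPM), C4b (54.3 CPM), Col4a1 (6020.0 CPM), Foxf2 (41.1 CPM), Itga4 (183 CPM), Lifr (205 CPM), Pdgfc (33.1 CPM) and Tet1 (45.8 CPM), and for the summed lymphatic endothelial markers (359 CPM), pericyte markers (2874 CPM) and subepithelial fibroblast markers (4118 CPM). P14 replicate 1 stood above the others for Mcm4 (71.9 CPM) and Sec24d (302 CPM). P14 replicate 2 stood above the others for Zbtb16 (8.61 CPM). Of the adult libraries, replicate 1 was far above the rest for Bambi (41.6 CPM), Hoxa11 (11.9 CPM), Ifit2 (71.6 CPM), Nr1h3 (19.4 CPM), Rspo3 (8.65 CPM), Sec24d (132 CPM), Tslp (3.91 CPM) and Vcan (424 CPM), and for the summed fibroblast markers (44190.0 CPM). It was far below the rest for the summed interstitial cell of Cajal markers (817 CPM). Adult replicate 2 was far below for Snai2 (1.44 CPM). Adult replicate 4 was far above for Hand2 (2.49 CPM) and Hey1 (6.44 CPM), and for the summed endothelial markers (464 CPM). It was far below for Cd163 (4.02 CPM), Cdc6 (1.43 CPM) and Sema3c (492 CPM).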

How the results depend on the processing

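Leaving out 1 library at a time gave 1909 to 2607 genes higher and 2158 to 2786 lower. Of the 2797 rises and 2992 falls, 1904 to 2507 and 2144 to 2650 passed again in these fits. The 213 called genes of the sections above, picked with their values known, all passed in each fit. They also passed with upper quartile scaling, library totals alone, no filter, a minimum count of 50, the 8 libraries only, DESeq2 and limma voom. The 213 leave out the genes under other observations, of which Igf2 and Cdkn1c did not pass in every fit. Library totals alone gave 2156 genes higher and 3403 lower, and upper quartile scaling 3133 genes higher and 2813 lower. The fit to the 8 libraries only gave 4202 genes higher and 4035 lower, a threshold of adjusted p under 0.01 gave 1467 genes higher and 1668 lower, and a test against a 2-fold change gave 338 genes higher and 788 lower. These last 2 settings ended 6 and 95 of the 213 named calls by their own construction. The epithelial covariate, added after seeing the data, gave 14 genes higher and 9 lower and left 8 of the 213. With it, the log2 fold change changed sign, and the cause was not tested, for Cdh1 0.65, Epcam 0.00, Erbb3 0.57, Fcgbp 0.39, Itga3 0.15, Krt19 0.21, Krt8 0.05, Lamb3 0.15, Lgals4 0.16, Lypd8 0.82, Muc2 0.04, Ogn -0.03.

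The numbers in the library titles pair the groups for 2 numbers only. Deviations of same-numbered libraries correlated at 0.26 for number 2 and -0.37 for number 3, so the numbers were not taken to pair them. With the replicate block the test gave 1170 genes higher and 1783 lower, and 28 of the 213 named calls did not pass.

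With 4 libraries a group and a common biological coefficient of variation of 0.333, a p that misses the threshold does not show equal levels, and levels under 1 CPM rest on few reads.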

Other observations

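The genes in this section were chosen after their values were seen. Within the P14 group, replicates 1 and 2 were apart from replicates 3 and 4 in several growth-limiting or growth-promoting imprinted genes. The likeness of replicates 1 and 2 was not confined to such genes. Over all tested genes, the highest rank correlation with another P14 library was 0.9947 for replicates 1 and 2. The highest was 0.9768 for replicate 3 and 0.9752 for replicate 4. H19, a maternally expressed RNA, stood at 0.833, 3.65, 2.92 and 2.83 CPM in the normal adult libraries and 164, 216, 42.5 and 26.4 CPM in the P14 libraries. Igf2, its paternally expressed neighbour and a fetal growth factor, stood at 6.86, 5.94, 7.21 and 6.68 CPM in the normal adult libraries and 25.4, 37.6, 11.9 and 7.28 CPM in the P14 libraries, and its rise (log2 fold change 1.62 ± 0.43 at adjusted p = 0.0131) did not pass without P14 replicate 2. Cdkn1c, a maternally expressed cell cycle inhibitor, stood at 11.02, 7.63, 8.65 and 8.79 CPM in the normal adult libraries and 44.5, 40.2, 20.7 and 17.7 CPM in the P14 libraries, and its rise (adjusted p = 0.0276) did not pass without P14 replicate 1 or 2 or without normal adult replicate 2, 3 or 4. The contractile gene Cnn1 had the same order, at 55.9, 39.4, 57.7 and 69.8 CPM in the normal adult libraries and 486, 706, 218 and 249.5 CPM in the P14 libraries. In all 4 genes, both of replicates 1 and 2 exceeded both of replicates 3 and 4, and the labels give no litter, batch or date that would split them. Each group is stated to hold 2 males and 2 females, without the sex of each library, and whether sex follows this split was not tested. The imprinted gene Peg3 did not have this order, at 198.7, 204.6, 231.5 and 156.4 CPM in the P14 libraries.

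Within the adult group, C7, a complement component, stood at 89.7, 67.2, 7.93 and 9.68 CPM in the normal adult libraries and 2.09, 3.50, 2.49 and 1.95 CPM in the P14 libraries. Adult replicates 1 and 2 were over 6 times replicates 3 and 4, and all P14 values lay below them. Lymphatic endothelial markers summed to 273, 223, 265 and 380.5 CPM in the normal adult libraries and 172, 175, 359 and 189.6 CPM in the P14 libraries, with P14 replicate 3 the highest of its group, as for the endothelial sum.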
